A study of Triticum aestivum with 14 samples.

Results

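F5, a whole wheat floret, was compared with the average of 3 organs dissected from a floret (lemma, anther and ovary), each organ weighted equally. The average was taken over log values. The genes described are those whose 3 F5 libraries all lay above, or all below, the 8 organ libraries in CPM (counts relative to the library total), a scale on which any mixture of the organs' RNA must lie between them. Of 79114 genes tested among the 100591 in the table, 8148 were called higher in F5 and lay above the organ range, and 3206 were called lower and lay below it. A gene was called at an adjusted p under 0.05 with at least a 2-fold change (edgeR quasi-likelihood test, Benjamini-Hochberg adjustment). The range was taken from the values that the test used, so it describes the called genes and is no further evidence for them.

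RNA was sequenced in bulk from untreated wheat (Triticum aestivum), central spikelets at day 21 after the terminal spikelet stage. All samples share the label N50, which the labels do not explain. The groups used here were F5 (3 libraries), F1 (3 libraries, another floret, outside the comparison and shown beside it), Lemma (2 libraries), Anther (3 libraries) and Ovary (3 libraries). The study states that it set fertile against abortive florets and examined the 3 organs within the fertile one, but the labels do not say whether F1 or F5 was fertile. The organs may therefore come from another floret than F5. In that case a difference between florets and a difference between a whole floret and its organs cannot be told apart. Palea, lodicules and the rachilla were not profiled, so RNA that a whole floret takes from them has no counterpart among the organs. Nothing in the labels says that replicates came from separate plants, so p-values measure the spread between these libraries, which may be technical. F5 libraries held 100415586 to 105526441 counts, and the 8 organ libraries 76441070 to 103924952.

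A wheat floret is enclosed by a lemma and a palea, green bracts whose walls become lignified and covered with wax, around lodicules, stamens and the ovary. Lignin forms when phenylpropanoid units are oxidised in the wall by laccases and peroxidases, with dirigent proteins steering how some units couple, and xyloglucan endotransglucosylase/hydrolases (XTHs) cut and rejoin wall xyloglucan. Growing floral organs draw on sucrose, which SWEET carriers move across membranes, sucrose synthase and invertase split, and cereals also store as fructan. MADS-box transcription factors set the identity of floral organs.

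Against the organ average, 18011 genes were called higher in F5 (22.8% of genes tested) and 10495 lower (13.3%). Because log values were averaged, a gene nearly absent from some organs can be called higher although another organ exceeds F5. Genes above the organ range made up 10.3% of the genes tested and genes below it 4.05%. Only part of them differed from every organ by a test of its own. Of the 8148 above, 3498 (42.9%) were called higher against Lemma, against Anther and against Ovary, where 3558 of all genes tested were (4.5%). Of the 3206 below, 1761 (54.9%) were called lower against each of the 3, where 1949 of all genes tested were (2.46%). Over all genes tested, 13.6% were called higher and 11.4% lower against Lemma, 27.5% and 23.8% against Anther, and 23.6% and 19.9% against Ovary. Without any call, every F5 library lay above the organ range in 11.7% of genes and below it in 5.2%. All these comparisons share the F5 libraries.

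Most genes lay outside the range by little. The gap is the lowest F5 library divided by the highest organ library, or the lowest organ library by the highest F5 library, with values under 12 counts raised to 12. Its median was 1.56-fold for genes above and 1.30-fold for genes below. The gap reached 2-fold in 2756 genes above and 512 below, 5-fold in 708 and 70, and 10-fold in 276 and 31. Among genes above, the highest organ library was a Lemma library in 52.2%, an Ovary library in 30.9% and an Anther library in 12.7%, and the others had no counts in any organ. Among genes below, the lowest organ library was from Lemma in 59.0%, from Anther in 22.9% and from Ovary in 18.1%. A Lemma library therefore bordered F5 most often on either side, and Lemma, with 2 libraries, is also the organ whose range is least well measured.

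**Figure D1:**
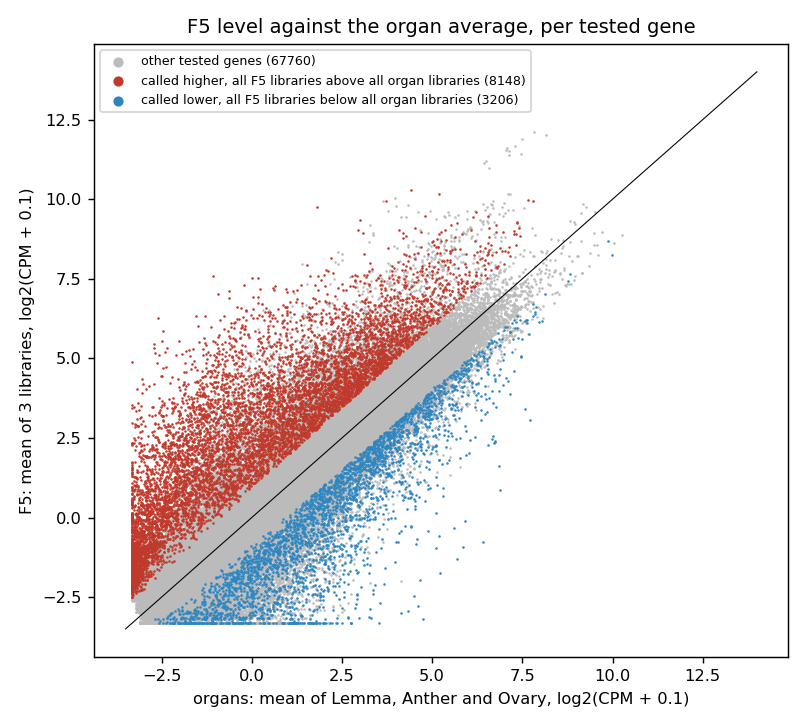
Mean level of each tested gene in F5 (vertical axis) against the mean of Lemma, Anther and Ovary (horizontal axis), both as log2 of CPM plus 0.1; the line marks equal levels. The 8148 genes above the organ range are red and the 3206 below it blue; grey genes off the line were called against the average but had an F5 library inside the organ range, or were not called.

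Each F5 library was also left out of the choice in turn. Where F5 replicates 2 and 3 lay above all organ libraries, F5 replicate 1 did too in 90.1% of genes. The share was 90.7% with replicate 2 left out and 84.1% with replicate 3 left out. For genes below the range the shares were 79.9%, 77.2% and 74.2%. The same organ libraries set the border each time, so part of the agreement is built in, and the shares are a description.

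Genes above the range took 20.8% ± 0.783 of the counts in F5 (SD, n = 3). They took 9.51% ± 1.79 in F1 (n = 3), 7.86% ± 0.198 in Lemma (n = 2), 2.86% ± 0.153 in Anther (n = 3) and 4.68% ± 0.121 in Ovary (n = 3). The genes below took 1.37% ± 0.0795 of the counts in F5, 3.85% ± 0.712 in F1, 3.64% ± 0.152 in Lemma, 10.6% ± 0.0537 in Anther and 6.39% ± 0.555 in Ovary. The F5 and organ shares are set by the choice of genes and are given as a description. Genes of ribosomal RNA took 0.605% to 1.61% of counts in F5 libraries and 0.695% to 4.08% in the organ libraries, and their part in the results was not tested.

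**Figure D2:**
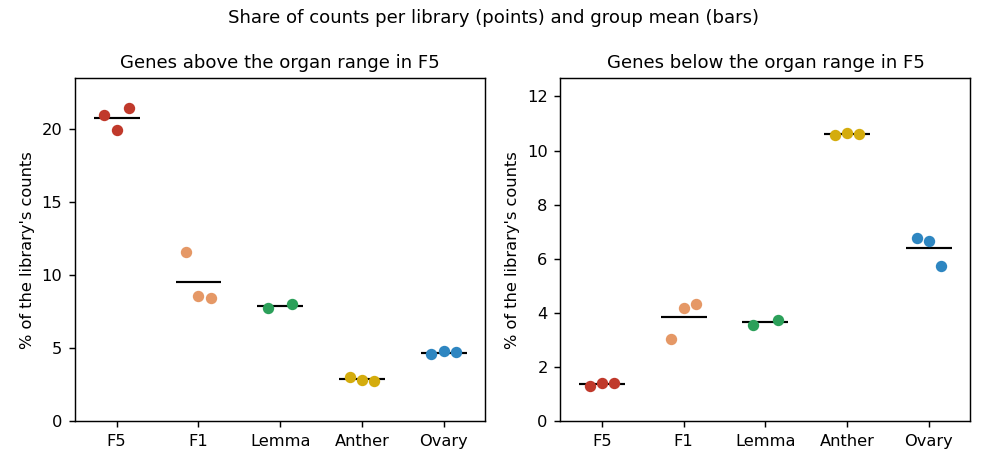
Percentage of each library's counts (points) in the genes above (left) and below (right) the organ range, with group means (bars), for F5, F1, Lemma, Anther and Ovary. F5 libraries sit at 19.9% to 21.4% on the left and the 3 F1 libraries at 8.40% to 11.6%.

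The organ labels were checked against marker lists, by their sums and not gene by gene. Genes annotated to pollen, anther, tapetum or exine summed to 2049 to 2125 CPM in F5 and 4774 to 4991 in Anther, the highest of the groups. Genes annotated to ovule, embryo sac or stigma summed to 648 to 665 in F5 and 1024 to 1164 in Ovary, again the highest. Photosystem and light-harvesting genes summed to 27934 to 33069 in F5 and 27952 to 33598 in Lemma, but 1151 to 1580 in Anther and 939 to 1075 in Ovary. The cuticle and wax list, in contrast, did not single out Lemma. Ovary had the highest organ sums on it (2427 to 2744), Lemma came next (1175 to 1564), and Anther was lowest (799 to 839). Among the organs the F5 totals lay nearest to Lemma on the photosystem list, and also on the anther list, where Lemma had 1819 to 1853. In such bulk RNA, fewer cells of a type and less RNA per cell cannot be told apart.

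Of the genes without a name or description, the first chosen by its gap was TraesCS2A02G014800, which the table annotates only to acyl transfer, at 12.8, 21.4 and 18.0 FPKM in F5 and no counts in any organ library. FPKM stands for the authors' length-scaled values, which are also relative to library size. F1 had 0.0738, 0.0651 and 0.0526 FPKM of it. Set against 12 counts, the lowest F5 library was at least 138-fold higher. A jacalin-related lectin gene, TraesCS5A02G506900 (chromosome 5A, 671551271 to 671552788 on the table's genome build, which is not given in the sources used here), coding for a carbohydrate-binding protein, had 6.23, 7.25 and 6.35 FPKM in F5. It had no counts in Lemma, Anther or F1, and at most 0.0219 FPKM in Ovary.

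NAC genes code for plant transcription factors, some of which are known to drive senescence or secondary wall formation. Of 12 tested that annotation text placed in this family, 7 were called higher, 1 lower, and 3 lay above the range. TraesCS5B02G142100 (chromosome 5B, 267777723 to 267779485) had 46.3, 46.1 and 17.7 FPKM in F5, against 0.0578 and 0.0977 in Lemma, 0.052, 0 and 0 in Anther and 0.128, 0.0221 and 0.0541 in Ovary. TraesCS5A02G143200 (chromosome 5A, 317246617 to 317248367) had 34.4, 36.6 and 15.9 FPKM in F5, and its highest organ library had 0.117. Both genes were lower in F5 replicate 3 than in the other two libraries, yet that library still exceeded every organ library 132-fold and 129-fold. The fitted log2 fold changes were 9.63 ± 0.55 (SE, adjusted p = 3.48e-07 by edgeR) and 9.15 ± 0.52 (adjusted p = 3.31e-07 by edgeR). F1 stayed at 0.0444 to 0.27 FPKM for TraesCS5B02G142100 and 0.114 to 0.226 for TraesCS5A02G143200. Their sequences may be similar enough to share reads, which could not be checked here.

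Lignin-related genes were above the range at several steps. Of 48 laccase genes tested, 39 were called higher, 0 lower, and 33 (68.8%) lay above the range. The list's median log2 fold change was 5.86 as fitted and 2.97 with values under 12 counts raised to 12, against 0.05 and -0.14 over all genes tested. TraesCS1B02G292600 had 3.95, 7.51 and 11.5 FPKM in F5, against 0.0498 and 0.124 in Lemma, none in Anther and 0, 0 and 0.0161 in Ovary. TraesCS1B02G293100 had 13.1, 10.6 and 18.5 FPKM in F5, against 0.196 and 0.404 in Lemma, none in Anther and at most 0.0928 in Ovary. The F5 libraries of each laccase gene varied, and the lowest exceeded the highest organ library 30.8-fold and 25.6-fold.

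Dirigent protein genes followed the same direction. Of 96 tested, 70 were called higher and 0 lower, and 48 (50%) lay above the range, with a median of 5.09 as fitted and 1.38 with the 12-count floor. Many of these genes had few counts in the organs, where a fitted fold change is poorly determined. TraesCS7B02G017300 was the most abundant of the 4 named by their gap, at 44.8, 30.8 and 49.6 FPKM in F5. It had 0.222 and 0.936 in Lemma, none in Anther and at most 0.0444 in Ovary. TraesCS5A02G175900 had 5.31, 2.96 and 7.76 FPKM in F5 and no counts in any organ library, at least 18.6-fold higher in the lowest F5 library than 12 counts would be. TraesCS3B02G095400 had 10.9, 6.76 and 14.3 FPKM in F5 and at most 0.063 in an organ library, and TraesCS3D02G080700 had 8.4, 6.76 and 9.93 in F5 and at most 0.236.

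Of 275 class III peroxidase genes tested, 164 were called higher and 19 lower, with 91 (33.1%) above the range and 4 (1.45%) below. TraesCS1D02G096400 had 16.1, 8.41 and 5.78 FPKM in F5, against 0.0221 and 0.0549 in Lemma, none in Anther and 0, 0.0366 and 0.0645 in Ovary. Going the other way, TraesCS6B02G164400 had 0.88, 0.425 and 0.857 FPKM in F5, against 1.38 and 1.91 in Lemma, 1.69, 2.09 and 2.12 in Anther and 7.93, 8.72 and 8.45 in Ovary. Peroxidases take part in wall cross-linking and also in other oxidations, and the table does not tell these apart.

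Phenylalanine ammonia-lyase, the entry enzyme of the phenylpropanoid pathway, made up most of the lignin synthesis genes above the range. It also made up most of those tested on the lignin synthesis list, with 14 of its 33 tested genes (42.4%) above. Of 51 tested genes on that list, 29 were called higher and 2 lower, and 19 (37.3%) lay above. TraesCS6B02G258400 had 125, 133 and 157 FPKM in F5, against 12.5 and 14.8 in Lemma, 0.0753, 0.0767 and 0.116 in Anther and 5.10, 6.27 and 4.15 in Ovary. The F5 libraries were close together and 8.32-fold or more above every organ library, with a fitted log2 fold change of 6.21 ± 0.17 (SE, adjusted p = 5.27e-09 by edgeR). In F1 the gene had 48.0, 25.9 and 31.8 FPKM, which is above every organ library too. TraesCS6D02G162800, a cinnamyl alcohol dehydrogenase gene for the last step to the lignin alcohols, averaged 26.6 FPKM in F5, 13.5 in F1, 5.30 in Lemma, 3.32 in Anther and 5.53 in Ovary.

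Of 90 XTH genes tested, 50 were called higher and 5 lower, and 28 (31.1%) lay above the range. TraesCS1D02G404300 had 81.1, 59.5 and 125 FPKM in F5, against 1.57 and 2.21 in Lemma, 0.183, 0.887 and 0.273 in Anther and 1.73, 2.20 and 1.18 in Ovary (log2 fold change 6.29 ± 0.42, adjusted p = 1e-06 by edgeR). TraesCS3D02G093900 had 17.5, 15.5 and 16.3 FPKM in F5, no counts in Lemma and at most 0.443 in an Ovary library. Among 37 expansin genes, whose products loosen walls, 14 were called higher, 5 lower, and 8 (21.6%) lay above. The expansin gene TraesCS3B02G376800 had 26.2, 25.8 and 48.6 FPKM in F5, with Ovary the nearest organ at 4.04, 4.65 and 4.84. Of 75 genes on the cellulose synthase list, 17 (22.7%) lay above and 3 (4%) below. Only 21 carry the plain description cellulose synthase, and of those 21, 8 (38.1%) lay above and 0 below. TraesCS5B02G517500 had 111, 88.2 and 91.2 FPKM in F5 and at most 45.8 in an organ library.

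Of 180 cuticle and wax genes tested, 109 were called higher and 11 lower, with 53 (29.4%) above the range and 6 (3.33%) below. Summed over the list, however, F5 (2380 to 2724 CPM) overlapped Ovary (2427 to 2744), so the list's total did not separate them. A fatty acyl-CoA reductase gene, TraesCS4A02G388600, for an enzyme that makes wax alcohols, had 13.6, 8.41 and 6.06 FPKM in F5, against 0.496 and 0.329 in Lemma, none in Anther and at most 0.0334 in Ovary. A 3-ketoacyl-CoA synthase gene, TraesCS1A02G406200, from the family that lengthens fatty acids, lay below the range at 1.29, 1.10 and 1.40 FPKM in F5, and its lowest organ library had 3.04. Of 34 lipid transfer protein genes, 33 were called higher and 16 (47.1%) lay above the range. TraesCSU02G147100 had 53.7, 48.2 and 34.1 FPKM in F5 and at most 1.92 in an organ library, an Ovary one.

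**Figure D3:**
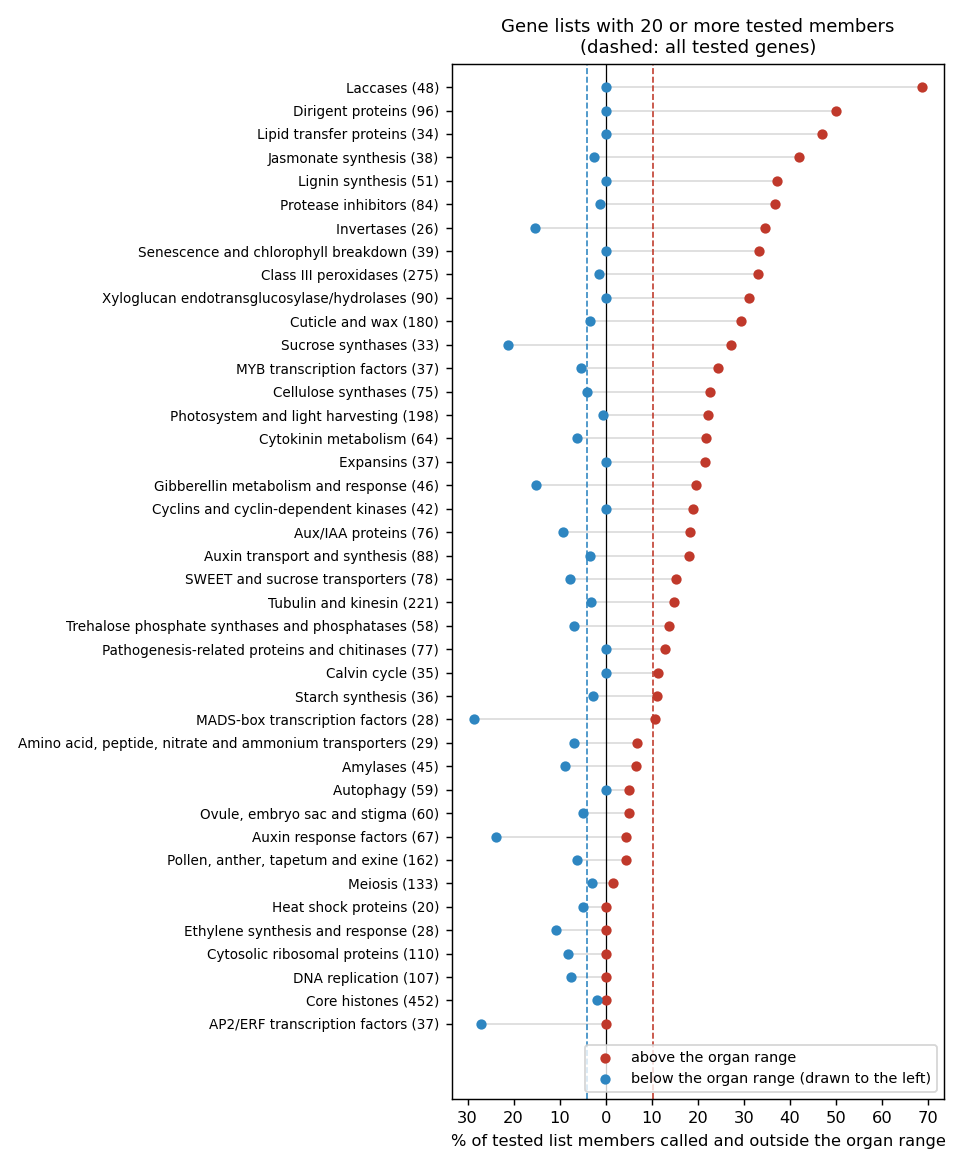
For each gene list with at least 20 tested members (number in brackets), leaving out the lists made after values were seen, the percentage called and above the organ range (red, to the right) and called and below it (blue, to the left); dashed lines mark the same over all tested genes, 10.3% and 4.05%. Among the lists drawn, laccases, dirigent proteins and lipid transfer proteins have the highest shares above, and MADS-box, AP2/ERF and auxin response factor genes the highest shares below.

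Genes for breakdown and recycling were mixed. On the senescence and chlorophyll breakdown list, 19 of 39 were called higher, 0 lower, and 13 (33.3%) lay above. TraesCS6B02G174300, annotated to chlorophyll breakdown, had 18.9, 4.62 and 7.42 FPKM in F5, against 0.219 and 0.300 in Lemma, none in Anther and at most 0.208 in Ovary. The senescence-associated protein gene TraesCS7D02G531600 was steadier, at 12.5, 12.3 and 13.9 FPKM in F5 and at most 1.26 in an organ library. Autophagy genes, which serve bulk recycling of cytoplasm, were seldom outside: 3 of 59 were called higher and lay above the range (5.08%), and 0 were called lower.

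The second gene without a name or description chosen by its gap, TraesCS1D02G149700, is annotated to ribonuclease T2 activity, and enzymes of that family degrade RNA outside the cytosol. It had 47.0, 40.1 and 96.1 FPKM in F5, against 0 and 0.0364 in Lemma, 0.170, 0.167 and 0.0750 in Anther and 0, 0 and 0.0757 in Ovary. A list of this family was drawn up after that value was seen: 16 of 21 tested genes were called higher, 0 lower, and 11 (52.4%) lay above. Another list made after values were seen, peroxisomal acyl-CoA oxidase genes for the first step of fatty acid beta-oxidation, had 8 of 12 above the range and 4 not called, with small gaps. TraesCS7D02G143200 averaged 10.7 FPKM in F5, 4.11 in F1, 3.71 in Lemma, 1.97 in Anther and 0.732 in Ovary.

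Jasmonate synthesis and protease inhibitor genes, linked in grasses as elsewhere to wound and defence responses, lay above the range in 16 of 38 (42.1%) and 31 of 84 (36.9%) tested. The lipoxygenase gene TraesCS5B02G006500, for an enzyme that oxidises polyunsaturated fatty acids, had 2.86, 1.40 and 2.93 FPKM in F5 and at most 0.0107 in an organ library. The serine protease inhibitor gene TraesCS1A02G265600 had 15.1, 21.8 and 3.74 FPKM in F5, so that its F5 libraries differed widely, and at most 0.212 in an organ library. The cysteine proteinase inhibitor gene TraesCS1D02G310300 lay below the range at 34.4, 43.0 and 35.4 FPKM in F5, with 45.8 in the lowest organ library (log2 fold change -1.45 ± 0.42, adjusted p = 0.0148 by edgeR). That call was lost without F5 replicate 1 or without F5 replicate 3. Of 71 sulfotransferase genes, a list made after values were seen, 51 were called higher and 32 (45.1%) lay above the range.

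Photosynthesis genes separated F5 from the average far more often than from the range. Of 198 photosystem and light-harvesting genes tested, 175 were called higher against the average, but 44 (22.2%) lay above the range. All 35 Calvin cycle genes were called higher, and 4 (11.4%) lay above, near the share over all genes. Against Lemma the medians of the lists were -0.44 and -0.74. A ribulose bisphosphate carboxylase small chain gene, TraesCS2B02G079200, had 852, 930 and 856 FPKM in F5, against 706 and 650 in Lemma, 1.49, 1.29 and 1.12 in Anther and 1.85, 1.34 and 1.80 in Ovary. Its F5 libraries were 1.22-fold or more above Lemma. Chlorophyll a-b binding protein genes left the range more often, with 33 of 86 tested (38.4%) above it. Of the 86, 10 were called higher against each organ, and the family's median against Lemma was -0.17. One such gene, TraesCS1A02G403800, had 99.8, 124 and 131 FPKM in F5, 7.26 and 11.0 in Lemma, none in Anther and at most 0.176 in Ovary. In F1 it was uneven, at 84.9, 18.6 and 15.8 FPKM.

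Sugar genes left the organ range in both directions, often within 1 family. The fructan list held 7 genes, all called. The 3 above the range were 2 named fructan 1-exohydrolase genes, whose products degrade fructan, and 1 gene known by its hydrolase annotation. Fructan 1-exohydrolase w1, TraesCS6A02G060700, had 136, 112 and 86.1 FPKM in F5, against 11.6 and 10.4 in Lemma, 17.0, 14.6 and 12.7 in Anther and 11.3, 12.6 and 11.8 in Ovary (log2 fold change 3.16 ± 0.13, adjusted p = 3.21e-08 by edgeR). Fructan 1-exohydrolase w2, TraesCS6D02G064400, averaged 62.8 FPKM in F5 and 11.2 in Lemma, 12.0 in Anther and 6.74 in Ovary. The 3 organs were alike for the w1 gene, and F5 stood 5.15-fold or more above each of their libraries.

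The 2 genes below the range build fructan. Sucrose:sucrose 1-fructosyltransferase, which starts the chain (TraesCS7D02G008700), had 1.74, 1.81 and 2.27 FPKM in F5, against 11.0 and 8.24 in Lemma, 28.2, 24.1 and 18.3 in Anther and 52.5, 63.0 and 65.9 in Ovary (log2 fold change -3.62 ± 0.18, adjusted p = 1.43e-07 by edgeR). Sucrose:fructan 6-fructosyltransferase, which adds branches (TraesCS4A02G485400), had 1.35, 1.94 and 2.51 FPKM in F5 and 5.89 in its lowest organ library, from Lemma. F1 was on the other side, with 38.4 to 42.1 FPKM of the first gene and 73.7 to 87.1 of the second. For the second, every F1 library lay above every organ library. Of the 2 remaining list members, known by ontology alone, 1 was called higher and 1 lower, each with F5 inside the range.

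Sucrose synthase genes divided in the same way. Of 33 tested, 9 (27.3%) lay above the range and 7 (21.2%) below, with 13 not called. Only 22 of the 33 carry the plain description sucrose synthase, and of those 22, 9 (40.9%) lay above and 4 (18.2%) below. TraesCS7D02G036600 had 185, 145 and 179 FPKM in F5, against 12.3 and 9.65 in Lemma, 28.8, 28.6 and 27.3 in Anther and 6.19, 8.54 and 6.81 in Ovary (log2 fold change 3.70 ± 0.12, adjusted p = 9.07e-09 by edgeR). TraesCS4A02G446700 had 97.8, 74.9 and 87.5 FPKM in F5 and at most 20.2 in an organ library. In contrast TraesCS2A02G168200 had 0.545, 0.554 and 0.704 FPKM in F5, against 8.51 and 9.64 in Lemma, 217, 191 and 159 in Anther and 41.6, 51.9 and 24.4 in Ovary (log2 fold change -6.08 ± 0.30, adjusted p = 1.16e-07 by edgeR). TraesCS2D02G175600, also below, averaged 0.128 FPKM in F5, 1.96 in Lemma, 183 in Anther and 11.2 in Ovary.

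Invertase genes, for enzymes that split sucrose into glucose and fructose, were known here by ontology text. Of 26 tested, 9 (34.6%) lay above and 4 (15.4%) below. All 9 above have IDs on chromosomes 6A, 6B and 6D. TraesCS6A02G023300 had 78.4, 53.3 and 88.2 FPKM in F5, against 4.41 and 3.84 in Lemma, 1.07, 1.14 and 0.415 in Anther and 4.15, 5.47 and 6.32 in Ovary. Its F1 libraries, at 1.63 to 2.65 FPKM, were inside the organ range. TraesCS2D02G293200 lay below, at 0.0469, 0.119 and 0.0730 FPKM in F5, against 3.43 and 6.23 in Lemma, 144, 112 and 89.1 in Anther and 7.67, 6.24 and 3.72 in Ovary. Its lowest organ library exceeded the highest F5 library 28.3-fold. Near-identical copies on the 3 subgenomes can exchange reads, so the split of counts among the copies is uncertain.

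Of 78 SWEET and sucrose transporter genes tested, 12 (15.4%) lay above and 6 (7.69%) below, where 10.3% and 4.05% of all genes tested did. All 6 below were SWEET genes. TraesCS5A02G289200, the described gene farthest below the organ range, had 0.231, 0.367 and 0.333 FPKM in F5, against 10.9 and 21.2 in Lemma, 213, 147 and 151 in Anther and 59.9, 62.3 and 58.9 in Ovary. The gap was 29.2-fold, and the fitted log2 fold change -7.45 ± 0.32 (adjusted p = 4.7e-08 by edgeR). The SWEET genes TraesCS5B02G288600 and TraesCS5D02G297100 had 1.64 to 2.35 and 2.43 to 4.44 FPKM in F5, with 17.1 and 16.7 in their lowest organ libraries, both from Lemma. F1 had 13.1 to 27.2 FPKM of TraesCS5A02G289200, within the organ range. Above the range, TraesCS5A02G038900 had 7.57, 5.09 and 9.15 FPKM in F5 and at most 1.39 in an organ library. Among 58 trehalose phosphate synthase and phosphatase genes, 8 (13.8%) lay above and 4 (6.90%) below, not far from the 10.3% and 4.05% of all genes tested. The list's median log2 fold change was 0.13 as fitted and -0.09 with the 12-count floor. One of the genes below, TraesCS1A02G339300, had 0.794, 1.66 and 1.79 FPKM in F5 and 18.6 in its lowest organ library.

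**Figure D4:**
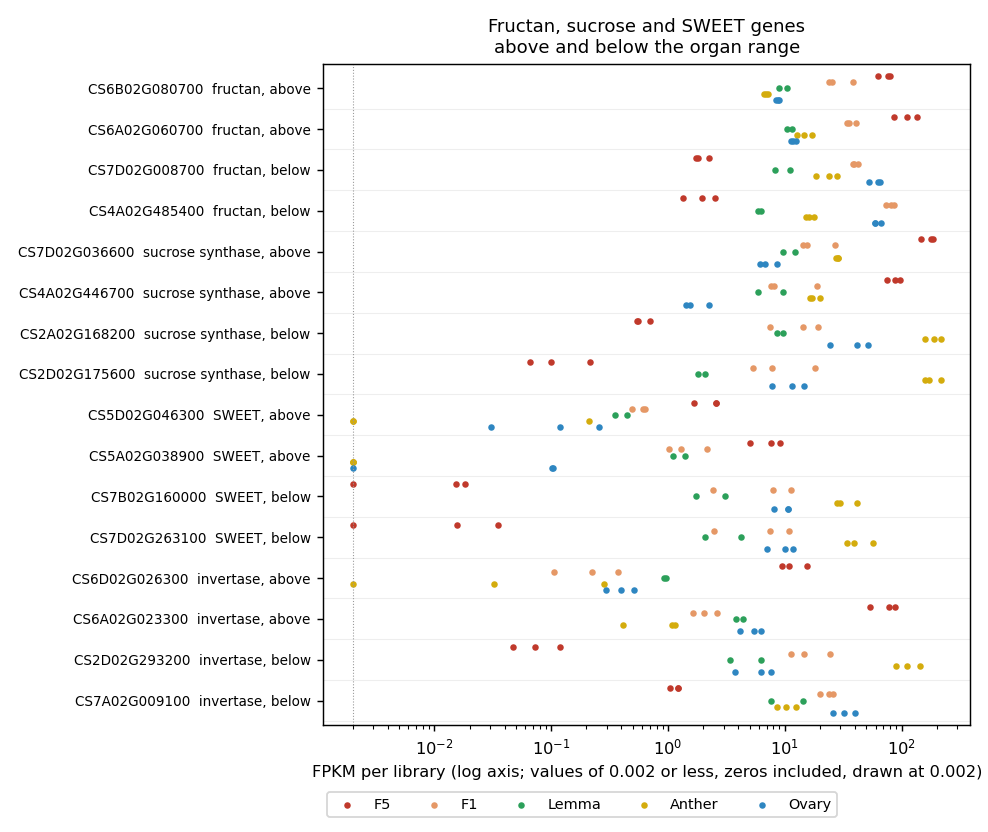
FPKM per library (log axis) of fructan, sucrose synthase, SWEET and invertase genes, up to 2 per list with the widest gap above and 2 below the organ range, with F5 as the uppermost row of points for each gene, then F1, Lemma, Anther and Ovary. F5 points lie right of all organ points for genes marked above and left of them for genes marked below, while F1 points lie among the organ points for most genes and between F5 and the organs for the fructan genes above. Choosing genes by the gap between F5 and the organs partly sets the place of F1.

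The MADS-box genes on the list, found by annotation text, were below the range more often than all genes. Members of the family without such text are not on it. Of 28 tested, 8 were called higher and 13 lower, with 3 (10.7%) above the range and 8 (28.6%) below. The share above was near the 10.3% of all genes tested. The APETALA3-like gene TraesCS7D02G380300, from the class that specifies petals (lodicules in grasses) and stamens, had 3.44, 5.34 and 4.39 FPKM in F5, against 25.5 and 23.6 in Lemma, 160, 131 and 142 in Anther and 129, 125 and 109 in Ovary (log2 fold change -4.10 ± 0.17, adjusted p = 3.8e-08 by edgeR). In Ovary this gene was not far below its Anther level, although the ovary is not among the organs named for its class. Whether the Ovary libraries held RNA of other floral organs was not tested. WM13, TraesCS7B02G286600, had 2.73, 4.24 and 2.34 FPKM in F5, against 20.2 in each Lemma library, 115, 90.2 and 97.5 in Anther and 114, 101 and 88.1 in Ovary. TaAGL7, TraesCS1D02G203300, had 0.833, 1.17 and 0.890 FPKM in F5 and ranged over the organs from 7.16 in an Ovary library to 15.4 in a Lemma library. F1 values of these genes were 31.7 to 75.8, 20.4 to 54.3 and 7.18 to 8.10 FPKM, each above F5.

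The MADS-box genes above the range had a different profile. WM4, TraesCS4D02G245200, had 49.7, 48.3 and 49.7 FPKM in F5, against 7.93 and 7.20 in Lemma, 4.32, 5.32 and 3.16 in Anther and 9.35, 12.5 and 15.6 in Ovary, and 3.94 to 5.32 in F1. TaAGL29, TraesCS2A02G261200, had 37.0, 33.7 and 31.2 FPKM in F5, only 1.19-fold above Lemma at 25.4 and 26.5. WM27A, TraesCS1B02G273300, lay inside the range and was singled out after its values were seen. It was called higher than the average of the organs' log values (adjusted p = 0.0214 by edgeR), with F5 at a mean of 0.0930 FPKM, no counts in Lemma or Anther, and 8.35 in Ovary.

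Auxin response factor genes, coding for transcription factors that act on auxin-regulated promoters, lay below more often than above. Of 67 tested, 4 were called higher and 23 lower, with 3 (4.48%) above the range and 16 (23.9%) below. TraesCS3D02G166700 had 0.0388, 0.12 and 0.105 FPKM in F5, against 3.07 and 1.35 in Lemma, 0.674, 1.31 and 1.46 in Anther and 8.35, 9.34 and 9.84 in Ovary. TraesCS7A02G252000 went the other way, at 37.4, 39.98 and 42.8 FPKM in F5 and at most 28.5 in an organ library. Aux/IAA genes, for repressors of those factors, lay on both sides, with 14 of 76 (18.4%) above and 7 (9.21%) below.

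Of 37 AP2/ERF genes tested, mostly cold-related CBF genes by name, 1 was called higher and 20 lower, and 10 (27.0%) lay below the range and 0 above. TraesCS7A02G057700 had 0.867, 0.741 and 2.71 FPKM in F5, against 14.5 and 23.5 in Lemma, 4.17, 7.47 and 13.0 in Anther and 64.4, 46.4 and 6.21 in Ovary. Ovary replicate 3 was far below the other two, and F1 ranged from 0.42 to 14.2 FPKM, so libraries of 1 group varied widely. Ethylene synthesis and response genes numbered 28, with 3 (10.7%) called lower and below the range and 0 called higher.

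Among hormone metabolism genes, 46 for gibberellin were split, with 9 (19.6%) above and 7 (15.2%) below. TraesCS3D02G401400, annotated to gibberellin biosynthesis, had 0.0169, 0.0843 and 0.0430 FPKM in F5, against 1.97 and 3.43 in Lemma, 16.6, 12.2 and 10.8 in Anther and 1.68, 1.67 and 1.95 in Ovary. Of 64 cytokinin metabolism genes, 14 (21.9%) lay above and 4 (6.25%) below. TraesCS1B02G471300, for an enzyme that activates cytokinin, had 0.0680, 0.386 and 0.363 FPKM in F5 and at least 1.43 in every organ library. TraesCS4A02G318100, of the same enzyme family, had 2.06, 2.09 and 2.03 FPKM in F5 and at most 0.161 in an organ library.

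Other genes farthest below the range were transporters and a polyamine enzyme. The WAT1-related genes TraesCS6A02G330100, TraesCS6B02G360900 and TraesCS6D02G309000, of a family of membrane transporters, had 0.186 to 0.287, 0.125 to 0.393 and 0.223 to 0.523 FPKM in F5. Their lowest organ libraries, all from Lemma, had 4.29, 3.91 and 3.91 FPKM. A list of this family made after those values were seen had 10 of 107 tested genes above the range and 12 (11.2%) below. The potassium transporter gene TraesCS7D02G388900 had 1.35, 1.39 and 0.908 FPKM in F5 and at least 5.71 in every organ library. The S-adenosylmethionine decarboxylase gene TraesCS6D02G202500, for a step to the polyamines spermidine and spermine, had 18.4, 28.9 and 28.7 FPKM in F5, against 131 and 127 in Lemma, 125, 136 and 147 in Anther and 117, 130 and 124 in Ovary. All organs were alike for this gene (log2 fold change -2.36 ± 0.16, adjusted p = 9.66e-07 by edgeR), and F1, at 28.1 to 60.4 FPKM, lay below every organ library too. A polyamine list made after values were seen had 2 of 21 tested genes above and 9 (42.9%) below. The 2 above were arginine decarboxylase genes, and 3 others of that name lay below.

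**Figure D5:**
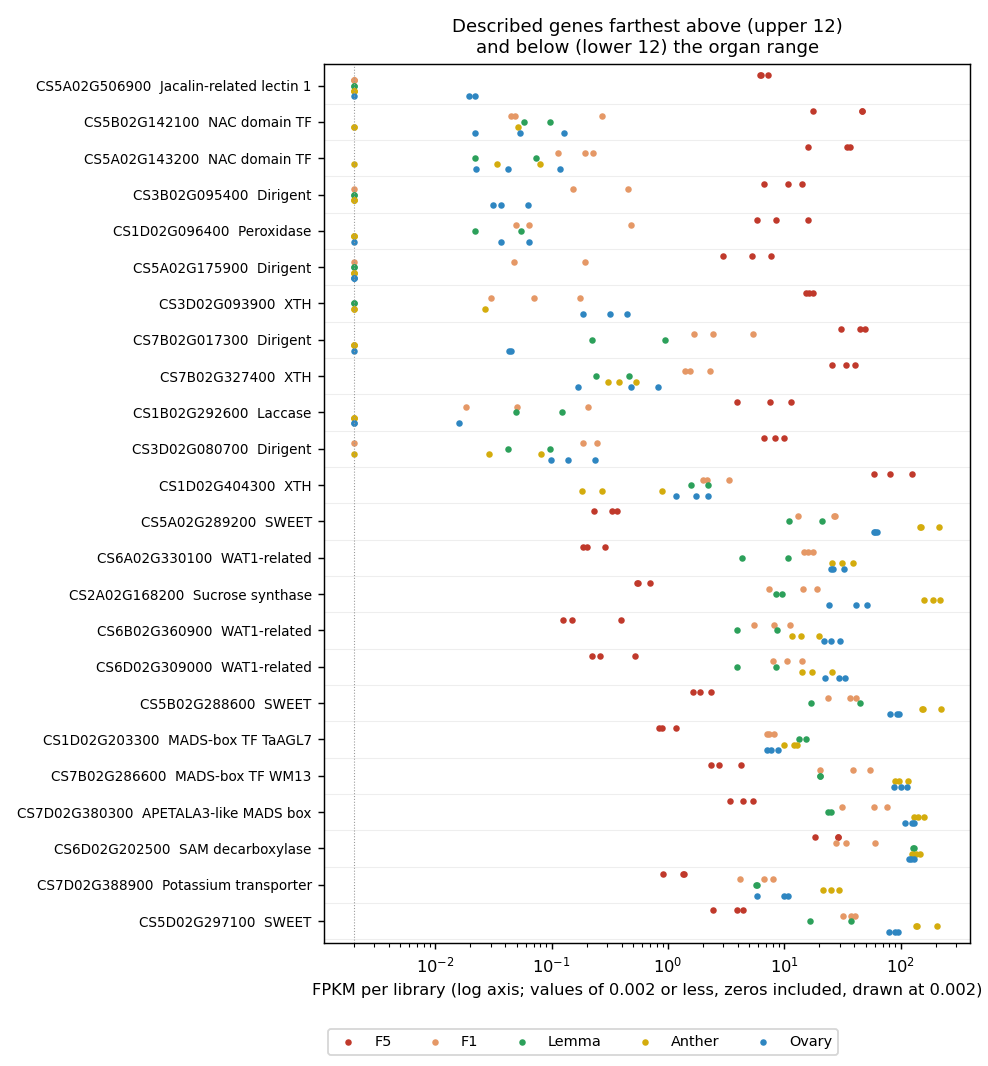
FPKM per library (log axis) of the 12 described genes farthest above and the 12 farthest below the organ range, with F5 as the uppermost row of points for each gene, then F1, Lemma, Anther and Ovary. F5 points stand apart on the right in the upper rows and on the left in the lower rows, and F1 points mostly lie nearer to the organs than to F5. The genes were chosen for the distance of F5 from the organs, so the place of F1 is partly set by the choice.

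Core histone genes differed from the average but seldom left the range. Of 452 core histone genes tested, 269 were called lower and 1 higher, yet 8 (1.77%) lay below the range and 0 above. Summed over the list, F5 had 1323 to 1379 CPM, Lemma 848 to 1051, Anther 1933 to 1995 and Ovary 15488 to 19830, so F5 lay between Lemma and Anther. An exception was the histone H4 gene TraesCS6A02G260700, at 0.159, 0.474 and 0.407 FPKM in F5 and at least 0.769 in every organ library. Of 107 DNA replication genes, 52 were called lower and 8 (7.48%) lay below the range, where 4.05% of all genes tested did. The DNA polymerase gene TraesCS4D02G094700 had 0.524, 0.747 and 0.572 FPKM in F5, against 2.00 and 1.36 in Lemma, 1.56, 1.72 and 1.87 in Anther and 3.65, 4.44 and 5.04 in Ovary. Cytosolic ribosomal protein genes had 23 of 110 called lower, 9 (8.18%) of them below the range, and 0 called higher. Meiosis genes had 2 of 133 above and 4 (3.01%) below. Genes of cyclins and cyclin-dependent kinases, not split here by function, had 18 of 42 called higher, 6 lower, 8 (19.0%) above the range and 0 below. Their median log2 fold change was 0.62 as fitted and 0.29 with the 12-count floor.

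Of 36 starch synthesis genes 4 (11.1%) lay above, near the 10.3% of all genes tested, and 1 below. Of 20 heat shock protein genes 1 (5%) lay below, near the 4.05% of all genes, and 0 above (HSP70, TraesCS1D02G284000, at 2.09 to 2.81 FPKM in F5 and at least 7.77 in every organ library). Glutathione transferases had 0 of 18 outside the range, although 7 were called higher. Of 18 cytochrome P450 genes, 2 (11.1%) lay above, again near the share of all genes.

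Genes at the edge of the range show how narrow it can be. The uroporphyrinogen decarboxylase gene TraesCS4D02G170800, a step of chlorophyll and heme synthesis, lay just above with 42.7, 36.0 and 43.1 FPKM in F5 and 36.3 and 32.6 in Lemma. TraesCS4A02G136400, for the same enzyme, was just inside with 48.2, 45.7 and 49.8 FPKM in F5 and 45.0 and 44.9 in Lemma. On the lower side, Argonaute 4, TraesCS3A02G188400, was just below with 9.90, 8.66 and 5.97 FPKM in F5 and 9.78 in the lowest organ library. The inositol polyphosphate multikinase gene TraesCS7D02G419800 was just inside with 4.18, 3.35 and 3.87 FPKM in F5 and 4.23 in a Lemma library. These pairs are compared in CPM of the library total, and the FPKM values, scaled otherwise, can order them differently.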

How the data were processed

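Bulk RNA-seq counts per gene were deposited by the authors for 14 libraries as whole numbers, beside FPKM values that the authors had scaled by gene length and by library size. Per the submitters' processing notes, Bowtie 0.12.2 and the build mm8 were used. That is a mouse build, so which aligner and build gave these wheat values is unknown here, and no gene ID matched the annotation at hand. In every library the most frequent count above 0 was 4 (1842 to 2117 genes in F5, with 722 to 804 at 1), so a count may not be 1 fragment, and depth in fragments may be below the count totals. Bounds on folds therefore use 12 counts in place of 3 and cover counting error only.

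Counts were scaled by TMM and filtered with filterByExpr, and 11 libraries (F5 and the organs) were fitted with edgeR 4.0.16 under R 4.3.3, two-sided. The contrast was F5 minus the mean of the 3 organ coefficients, and the fit also gave F5 against each organ. DESeq2 1.42.0 and limma 3.58.1 were alternatives. Counts were also simulated for this comparison, with 76796 genes, and judged by an adjusted p under 0.05 alone, without the 2-fold limit. This found 82 of the 100 genes given a 4-fold change, 40 of the 100 given a 2-fold change, and 7 others falsely. The median fitted log2 fold change of the 2-fold genes was 0.948, under the limit for a call. The simulated organs all had the same mean, and only genes above a set mean count were changed. Recovery at lower counts, or with organs that differ, was not tested. The members, the 55 lists (text patterns on names, descriptions or ontology) and 8 lists marked as late were chosen with earlier results of these data known. Named genes are, in each direction, the 12 described genes with the widest gap and at least 5 FPKM, up to 2 per list with at least 1 FPKM, 2 without description, and those nearest the border. For that order a 0 was set to 3 counts. Other genes given by group means were chosen after their values were seen. A name or description exists for 11141 tested genes (14.1%), so most genes outside the range, 6951 above and 2704 below, are undescribed. A list can therefore miss many members of its family, and its counts hold for the listed genes only. Replicate numbers correlated at -0.104 to 0.036 over 15 same-number pairs and were not taken as pairs.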

Additional observations from a re-analysis of the deposited data

Results flagged for a closer look

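F1 took no part in choosing the genes. The genes above the organ range in F5 took 8.401% of counts in the lowest F1 library and 11.6% in the highest, and at most 8.00% in an organ library, a Lemma one. The organ shares are limited by the choice of genes, which kept every organ library below F5, and the F1 shares are not, so no difference between F1 and the organs can be read from these values.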

How the results depend on the processing

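Directions of the named genes held under every alternative run, and 15 of 2888 gene values lost their call. With limma on log2(FPKM + 1), which shrinks low genes, 8447 genes were called higher, 6148 lower, 5089 above and 1635 below the range, and 356 lower than each organ (1231 with a pseudocount of 0.1, where 53.4% of calls were higher, against 63.2% by edgeR). Ranges on TMM-scaled counts moved the F5 share to 18.74% above and 1.529% below. A gap of 1.5-fold left 4818 and 1251 genes (12.09% and 0.3382% of F5 counts), and 2-fold 3183 and 655 (8.017% and 0.1239%). With values under 12 counts raised to 12, chosen after seeing the data, 2-fold left 2756 and 512 (8.001% and 0.1236%). Leaving out 1 library gave 8175 to 9173 genes above, 3208 to 4231 below, 16614 to 17972 higher, 8891 to 10513 lower, 2605 to 3630 higher and 1588 to 2038 lower than each organ, and F5 shares of 20.71% to 22.85% above and 1.365% to 2.108% below, the last without Ovary replicate 2. A fit with a replicate block gave 7943 above and 3117 below, with 97.2% and 96.8% of the genes shared. Some other settings kept fewer of the genes above and below. Ranges on TMM-scaled counts kept 88.6% and 92.1%, and limma on log2(FPKM + 1) 62.4% and 51.0%. Testing only genes with at least 1 FPKM in 1 of the 4 groups kept 76.5% and 82.7%. Medians of gibberellin, Aux/IAA, WRKY, trehalose, amino acid transporter and late embryogenesis lists changed sign under some alternatives. Gaps of genes with few counts are limited by the 12-count floor.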

Other observations

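Further annotated pathways and families had members outside the organ range. Over all genes tested, 10.3% were called and lay above it and 4.05% were called and lay below. Of 334 tested genes assigned to flavonoid biosynthesis, 171 were called higher and 94 (28.1%) lay above the range. Of 183 genes for degradation of valine, leucine and isoleucine, 52 (28.4%) lay above and 6 below. Of 43 pectin acetylesterase genes, whose products remove acetyl groups from wall pectin, 26 were called higher, 3 lower, and 16 (37.2%) lay above. On the lower side, genes of non-homologous end-joining had 8 of 30 (26.7%) below and 1 above, and homologous recombination 46 of 407 (11.3%) below and 17 above. Of 104 glycolysis genes, 14 (13.5%) lay below and 3 above. These pathways and families were picked after their values were seen, and genes can belong to several.

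The 3 subgenomes were about equally represented. Genes on A, B and D chromosomes made up 32.3%, 32.1% and 33.6% of genes above the range and 33.8%, 30.5% and 33.3% of genes below it, where they made up 32.6%, 32.5% and 32.5% of all genes tested.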
